A study of Mus musculus with 10 samples.

Results

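The genes described here serve antigen cross-presentation, and their mRNA was measured in CD8+ conventional type 1 dendritic cells (cDC1) of the mouse spleen with and without the phosphatase gene Ppef2. They were chosen by symbol as 9 of the 10767 genes in the table, of which 4 act in trafficking and export (Wdfy4, Sec22b, Sec61a1 and Lnpep) and 5 belong to the phagosomal NADPH oxidase NOX2 (Cybb, Cyba, Ncf1, Ncf4 and Rac2). All 9 were in the table and none had a value at its floor of 1. Cells were sorted as CD11c+MHCII+CD11b-CD8+ from untreated, sex- and age-matched mice of 8 to 13 weeks on the C57BL/6 background, and each of the 5 sorts gave 1 Ppef2+/+ and 1 Ppef2-/- library from 3 pooled mice. The Ppef2-/- mice carry a knock-out-first allele from JM8A3.N1 embryonic stem cells, in which a gene trap follows exon 4 and precedes exon 5, in every cell of the body. No stimulus was applied and no antigen was given, so the values describe resting cells.

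Cross-presentation is the display of peptides from engulfed antigen on MHC class I, and cDC1 are the dendritic cells best known for it. In the cytosolic route, antigen leaves the phagosome, is cut by the proteasome and returns to the class I pathway, while in the vacuolar route it is cut and loaded within the endosome. NOX2 slows the breakdown of antigen in the phagosome, since the superoxide it makes in the lumen consumes protons and keeps the pH from falling.

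Among these genes, Ncf1 was lower in each Ppef2-/- library than in every Ppef2+/+ library. Within the sorts, its differences were -16.4 to -5.95% of its mean. Of all genes, 314 (2.92%) were lower and 351 (3.26%) were higher in Ppef2-/- libraries without overlap. The difference in Ncf1 passed the test without the sort in the model and not with it. Without the sort, p values are too small, because the values were centred on each sort. The levels of the other 8 genes overlapped between the genotypes and did not pass either test. Wdfy4 was one of the most abundant mRNAs of these cells in both genotypes.

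Ppef2, the targeted gene, was 197 ± 32.5 normalized read counts (SD, n = 5) in Ppef2+/+ and 14.1 ± 17.2 in Ppef2-/- libraries. By the reads calculated back, with the mean of each sort put back, it was 197 ± 66.4 in Ppef2+/+ and 2.33 ± 1.88 in Ppef2-/- libraries, from 95 to 228 and 0 to 8 reads per library. All 13 cDC1 markers were in the table, with a summed level of 48624 to 50631 in Ppef2+/+ and 48855 to 50862 in Ppef2-/- libraries. Of other cell types, 0 of 8 T and NK cell markers, 3 of 7 B cell, 2 of 12 neutrophil, 7 of 8 cDC2, 6 of 7 plasmacytoid dendritic cell (pDC, without Cox6a2), 11 of 12 macrophage and monocyte and 5 of 9 erythroid and platelet markers were in the table. The macrophage and monocyte markers summed to 1647 to 1938 in Ppef2+/+ and 1679 to 1970 in Ppef2-/- libraries, and the neutrophil markers to 17.7 to 26.8 and 15.8 to 23.7. The B cell markers summed to 249 to 276 in Ppef2+/+ and 255 to 282 in Ppef2-/- libraries, the cDC2 markers to 1059 to 1449 and 1045 to 1434, and the erythroid and platelet markers to 166 to 300 and 177 to 310.

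For each of the 9 genes, as for all genes in the table without a value at the floor, adding the deposited value of one genotype to that of the other gave a total that did not differ between the 5 sorts. The values were thus centred on each sort. A gene that is high in one library of a sort is low in the other by the same amount. Both genotypes therefore have the same SD, which leaves out the spread between sorts. In such values the genotypes fail to overlap exactly where a gene moves the same way in 5 of 5 sorts. A test without the sort in the model treats the mirrored values as independent, and its p values come out too small. In that test, 17.5% of all genes had an unadjusted p under 0.05. Each call below therefore stands beside the value of a fit in which the sort is a block. Without that block, limma called 103 of 10767 genes at a Benjamini-Hochberg adjusted p under 0.05, or 0.957% of the genes tested, with 52 of them lower (0.483%) and 51 higher (0.474%) in Ppef2-/- cells. With the block, limma called 1 gene (0.00929%), which was Ppef2, and 462 genes (4.29%) had an unadjusted p under 0.05.

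**Figure D1:**
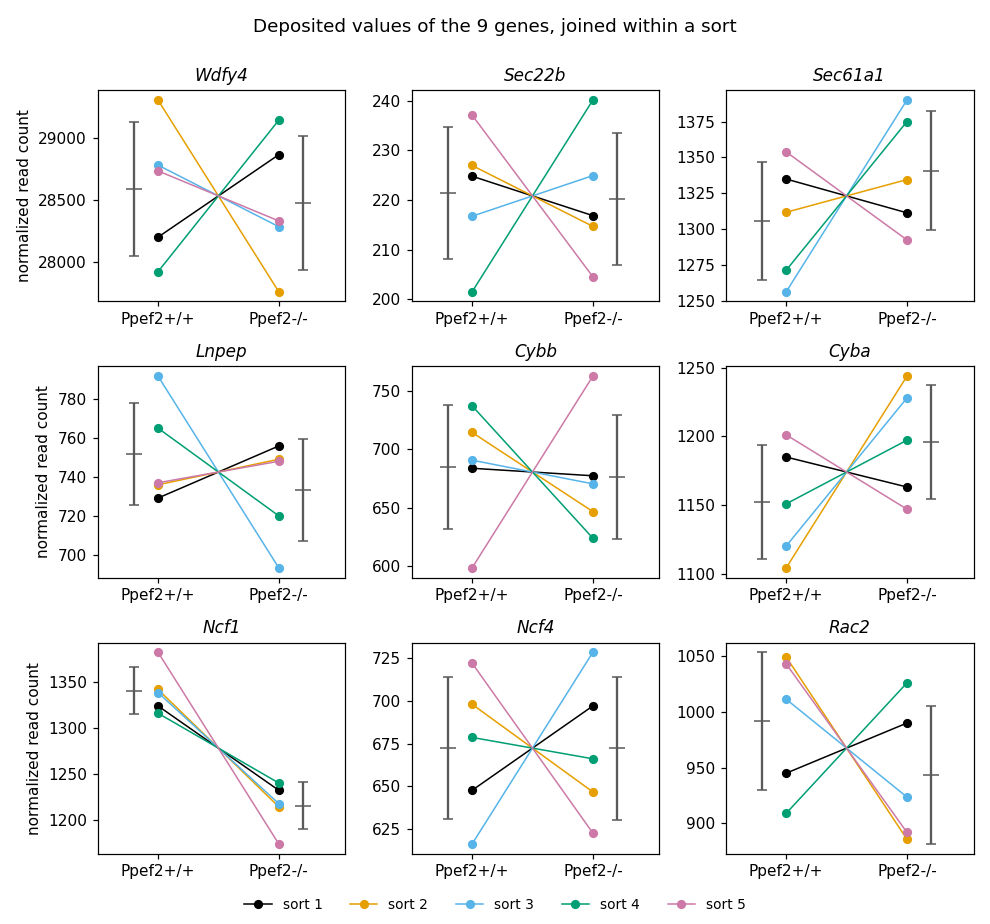
Normalized read count (y axis, not starting at 0) of each gene in the 5 Ppef2+/+ and 5 Ppef2-/- libraries, with points of one sort joined and bars showing the mean ± SD of each genotype. The lines of a gene cross at its mean because the mean of each sort had been removed, and in Ncf1 alone all 5 lines fall.

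Within the trafficking and export group, Wdfy4 stood out by its level. WDFY4 is a large BEACH domain protein that cDC1 need to cross-present antigen from cells. Its gene lies on the minus strand of chr14:32959547-33185508 (GRCm38, which UCSC calls mm10), and the transcript used here has 62 exons and codes for 3183 residues. With a mean of 28532 normalized read counts, it ranked 13 of 10767 genes. Per kilobase of exon it had 2704 normalized read counts and ranked 68 of the 10702 genes with an annotated length, where the median gene had 37.9. On this scale its level was 13.8 times that of Sec61a1, 48.7 times that of Sec22b and 51.5 times that of Lnpep. The scale counts all annotated exons of a gene, and these ratios depend on that choice. For Sec61a1 these are 6732 bases, against 3172 in its main transcript. For Wdfy4 they are 10552 against 10158, so that by main transcripts the ratio to Sec61a1 would be smaller.

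In sorts 1 to 5, Wdfy4 had 28200, 29303, 28779, 27922 and 28733 normalized read counts in Ppef2+/+ and 28864, 27760, 28284, 29142 and 28330 in Ppef2-/- libraries. The genotypes overlapped, and the Ppef2-/- library was the higher in sorts 1 and 4 and the lower in sorts 2, 3 and 5. The difference within a sort (Ppef2-/- minus Ppef2+/+) was -0.391 ± 3.78% of the mean of the gene (SD, n = 5 sorts), the smallest spread of the 9 genes. The log2 fold change was -0.01 with an adjusted p of 0.932 in limma without and 0.999 with the block. The 95% interval from the blocked fit ran from -7.23 to 6.95%, so that this fit leaves room for a change of this size in either direction. The fit takes its variance in part from all genes, so the width does not come from the 5 differences of Wdfy4 alone.

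Sec61a1 encodes the pore-forming subunit of the Sec61 channel of the endoplasmic reticulum (ER), which has also been proposed to let antigen out of the phagosome. It lies on the minus strand of chr6:88503579-88518905 and had 197 normalized read counts per kilobase, ranking 1201. From sort 1 to sort 5, Ppef2+/+ libraries held 1335, 1312, 1256, 1271 and 1354 normalized read counts of it, and Ppef2-/- libraries held 1311, 1335, 1390.2, 1375 and 1292. The Ppef2-/- library was higher in sorts 2, 3 and 4, by up to 10.1% of the mean in sort 3, and lower in sorts 1 and 5. The mean difference was 2.65 ± 6.26% (n = 5 sorts), and limma gave an adjusted p of 0.557 without and 0.995 with the block. An antisense gene, Gm44170, shares 549 bases of its exons (8.16%), and reads from both strands there cannot be told apart because the library kit did not keep the strand.

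Sec22b, a SNARE protein of the ER and the ER-Golgi intermediate compartment that helps to bring ER proteins to phagosomes, was the least abundant of the 9 genes by its read count. It lies on the plus strand of chr3:97901190-97923276, and it had 55.5 normalized read counts per kilobase (rank 4120). In the order of the sorts, Ppef2+/+ libraries held 225, 227, 217, 201 and 237 normalized read counts of it, and Ppef2-/- libraries held 217, 215, 225, 240.2 and 205. The largest differences went opposite ways, at 17.5% of the mean in sort 4 and -14.8% in sort 5. The mean difference was -0.540 ± 12.05% (n = 5 sorts), with an adjusted p in limma of 0.963 without and 0.999 with the block and a blocked 95% interval from -12.6 to 13.2%.

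Lnpep encodes the insulin-regulated aminopeptidase IRAP, which trims peptides within endosomes of the vacuolar route. It lies on the minus strand of chr17:17521410-17625050 and had 52.5 normalized read counts per kilobase (rank 4300), close to the 55.5 of Sec22b. From sort 1 to sort 5, Ppef2+/+ libraries held 729, 736, 792, 765 and 737 normalized read counts of it, and Ppef2-/- libraries held 756, 749, 693, 720.0 and 748. Sorts 1, 2 and 5 differed by less than 4% of the mean, all with the Ppef2-/- library higher, whereas the difference was -6.05% in sort 4 and -13.2% in sort 3. The mean difference was -2.49 ± 7.04% (n = 5 sorts), and limma gave an adjusted p of 0.636 without and 0.995 with the block.

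**Figure D2:**
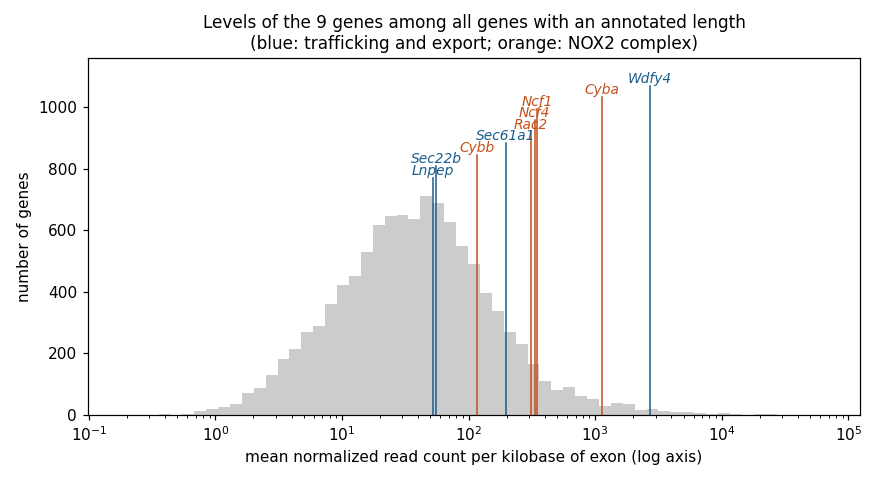
Number of genes (y axis) by mean normalized read count per kilobase of exon over the 10 libraries (x axis, log scale), for 10702 genes with an annotated length, with lines for the trafficking and export genes (blue) and the NOX2 genes (orange). Wdfy4 (2704) and Cyba (1130) lie far to the right, Ncf1, Ncf4 and Rac2 lie together between 312 and 349, and Sec22b and Lnpep lie near the middle of all genes.

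NOX2 consists of a membrane heterodimer, gp91phox (Cybb) and p22phox (Cyba), and of cytosolic factors, among them p47phox (Ncf1) and p40phox (Ncf4), which join it together with a Rac GTPase upon activation. Per kilobase of exon, Cyba had 1130 normalized read counts, followed by Ncf1 with 349, Ncf4 with 333, Rac2 with 312 and Cybb with 117. Cybb was thus 9.64 times below its partner Cyba. The levels of Ncf1, Ncf4 and Rac2 per kilobase lay within a narrow range. No test was made of this order, since it also depends on the exon lengths of the annotation.

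p47phox, the product of Ncf1, is the organizer that bridges the cytosolic factors to p22phox once it is phosphorylated. The gene lies on the minus strand of chr5:134220053-134229625, at 42.0 Mb from Ppef2 on the same chromosome, and its main transcript has 11 exons and codes for 404 residues. In the order of the sorts, Ppef2+/+ libraries held 1324, 1342, 1339, 1316 and 1383 normalized read counts of it, and Ppef2-/- libraries held 1232, 1214, 1218, 1240.2 and 1174. The lowest Ppef2+/+ value was above the highest Ppef2-/- value. The difference was -7.20, -10.0, -9.47, -5.95 and -16.4% of the mean in sorts 1 to 5. Sort 5 had the largest fall and sort 4 the smallest.

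The means of Ncf1 were 1341 ± 25.7 in Ppef2+/+ and 1216 ± 25.7 in Ppef2-/- libraries (SD of the centred values, n = 5 each). This SD leaves out the spread between sorts. The mean difference within a sort was -9.80 ± 4.02% of the mean. The log2 fold change was -0.14 ± 0.03 (SE), with an adjusted p of 0.0312 in limma without the block. With the block, the SE was 0.05, the unadjusted p was 0.0123 and the adjusted p was 0.995, and the 95% interval of the change ran from -15.8 to -2.35%. The exact two-sided sign-flip test over the 5 sorts gave a p of 0.0625, the smallest that 5 sorts allow. Of all genes, 314 (2.92%) were lower in Ppef2-/- cells in 5 of 5 sorts without overlap, and 214 (1.99%) were lower at an unadjusted p under 0.05 with the block. Leaving out any 1 of the 10 libraries raised the adjusted p without the block to between 0.0634 and 0.0919, with a log2 fold change between -0.15 and -0.13.

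Several other values stood beside this difference in Ncf1. The summed level of the 6 pDC markers was 1093 to 1227 in Ppef2+/+ and 934 to 1065 in Ppef2-/- libraries, without overlap. Of these markers, Tcf4 passed limma without the block (423 ± 19.6 against 342 ± 19.6 normalized read counts, adjusted p = 0.0182) and not with it (adjusted p = 0.711). Siglech was lower in 5 of 5 sorts with an adjusted p in limma of 0.0832 without and 0.995 with the block. Ccr9 was 239 ± 9.43 in Ppef2+/+ and 243 ± 9.43 in Ppef2-/- libraries. Bst2 was 284 ± 36.6 and 275 ± 36.6, with the Ppef2-/- library higher in 3 sorts. Of the 6 markers, 5 had a negative and 1 a positive log2 fold change, and Tcf4 fell most in normalized read counts. In these bulk samples, fewer cells of a type and less RNA per cell cannot be told apart, and the part of pDC in the Ncf1 values was not tested. The Ppef2-/- library was the deeper one in sorts 1 to 3 and the shallower one in sorts 4 and 5, and the part of depth in the Ncf1 values was not tested.

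Exons of Ncf1 overlap those of Gtf2ird2 on the opposite strand over 408 bases (11.1% of the exon length of Ncf1), where reads cannot be assigned without strand. Gtf2ird2 was much less abundant, with 86.0 ± 6.89 normalized read counts in Ppef2+/+ and 80.7 ± 6.89 in Ppef2-/- libraries (n = 5 each). It was lower in the Ppef2-/- library in sorts 1, 2 and 4 and higher in sorts 3 and 5 (adjusted p in limma 0.595 without and 0.995 with the block). The part of these reads in the Ncf1 values was not tested.

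The windows from 250 bases before to 50 bases after the RefSeq start are shown for Ncf1, the one gene of the 9 whose genotypes did not overlap, and for Cybb, which encodes the catalytic subunit of the same complex. Capitals mark matches on either strand to letters known from promoters of myeloid genes, namely GAGGAA and GGAAGT (ETS factors such as PU.1), the composite element of ETS and interferon regulatory factors (GGAA, any 2 bases, then GAAA), the interferon-stimulated response element (GAAA, any 2 bases, then GAAA) and TGANTCA (AP-1). Both come from RefSeq on GRCm38.p6 and are read 5′ to 3′ on the minus strand, Ncf1 from chr5:134229576-134229875 and Cybb from chrX:9469275-9469574.
Ncf1: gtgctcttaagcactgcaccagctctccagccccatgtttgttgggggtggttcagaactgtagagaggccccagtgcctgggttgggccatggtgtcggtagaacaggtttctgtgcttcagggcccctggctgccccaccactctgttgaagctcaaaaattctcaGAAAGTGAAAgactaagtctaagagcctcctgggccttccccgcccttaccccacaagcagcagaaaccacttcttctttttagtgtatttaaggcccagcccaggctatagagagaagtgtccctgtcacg
Cybb: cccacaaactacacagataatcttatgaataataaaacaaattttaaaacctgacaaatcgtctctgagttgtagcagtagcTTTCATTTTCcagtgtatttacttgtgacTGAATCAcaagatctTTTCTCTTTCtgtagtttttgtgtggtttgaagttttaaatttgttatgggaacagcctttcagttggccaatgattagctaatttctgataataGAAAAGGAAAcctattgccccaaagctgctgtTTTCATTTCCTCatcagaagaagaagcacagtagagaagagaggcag

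The window of Ncf1 holds 1 match, to the response element, and the window of Cybb holds 3 matches to it, 1 to TGANTCA, and 1 each to the composite element and GAGGAA, which overlap each other. The response element occurs in 3.44%, the composite element in 2.72%, TGANTCA in 7.81%, GAGGAA in 28.3% and GGAAGT in 23.8% of 32851 such windows. The window of Wdfy4 has 1 match to GGAAGT and that of Sec22b 1 to GAGGAA, and those of Lnpep and Cyba have none. A match is a run of letters only and does not show that a factor binds there.

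Cybb, the gene of the subunit that carries electrons across the membrane, lies on the minus strand of chrX:9435252-9487771. Normalized read counts of Cybb from sort 1 to sort 5 were 684, 714, 691, 737 and 599 for Ppef2+/+ and 677, 647, 670.5, 624 and 763 for Ppef2-/- cells. In sorts 1 to 4 the Ppef2-/- library was lower, with differences from -16.6 to -0.944% of the mean, and in sort 5 it was higher by 24.1%, the largest difference of any of the 9 genes in a sort. Its mean difference was -1.28 ± 15.5% (n = 5 sorts) and had the widest spread, and limma gave an adjusted p of 0.911 without and 0.997 with the block. Without sort 5, the blocked log2 fold change of Cybb was -0.11, with an adjusted p of 0.896.

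Cyba, whose product p22phox stabilizes gp91phox and docks p47phox, lies on the minus strand of chr8:122424776-122432930. In the order of the sorts, Ppef2+/+ libraries held 1185, 1104, 1120.0, 1151 and 1201 normalized read counts of it, and Ppef2-/- libraries held 1163, 1244, 1228, 1197 and 1147. It was higher in the Ppef2-/- library in sorts 2, 3 and 4 and lower in sorts 1 and 5. The mean difference was 3.71 ± 7.03% (n = 5 sorts), the highest of the 9 genes, with an adjusted p in limma of 0.434 without and 0.995 with the block. The blocked 95% interval of Cyba ran from -4.11 to 12.3%.

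Ncf4 and Rac2 both lie on chromosome 15, at chr15:78244801-78262580 on the plus strand and chr15:78559167-78572783 on the minus strand. The product of Ncf4, p40phox, binds phosphatidylinositol 3-phosphate on phagosomes. From sort 1 to sort 5, Ppef2+/+ libraries held 648, 698, 616, 679 and 722 normalized read counts of it, and Ppef2-/- libraries held 697, 647, 728, 666 and 623. The differences of Ncf4 ranged from -14.7% of the mean in sort 5 to 16.6% in sort 3 and averaged -0.0502 ± 12.3% (n = 5 sorts), the closest to 0 of the 9 genes. Limma gave Ncf4 an adjusted p of 0.996 without and 1.00 with the block, and a blocked 95% interval from -9.34 to 10.2%.

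Rac2, the hematopoietic Rac GTPase of the complex, had 945, 1049, 1011, 909 and 1043 normalized read counts in Ppef2+/+ and 990.0, 886, 923, 1026 and 892 in Ppef2-/- libraries. It was lower in the Ppef2-/- library in sorts 2, 3 and 5 and higher in sorts 1 and 4, and the differences ranged from -16.9 to 12.1% of the mean. The mean difference of Rac2 was -4.98 ± 12.8% (n = 5 sorts), with an adjusted p of 0.503 without and 0.995 with the block. After Ncf1 it was the gene with the lowest mean difference, and its blocked 95% interval ran from -13.4 to 4.46%.

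**Figure D3:**
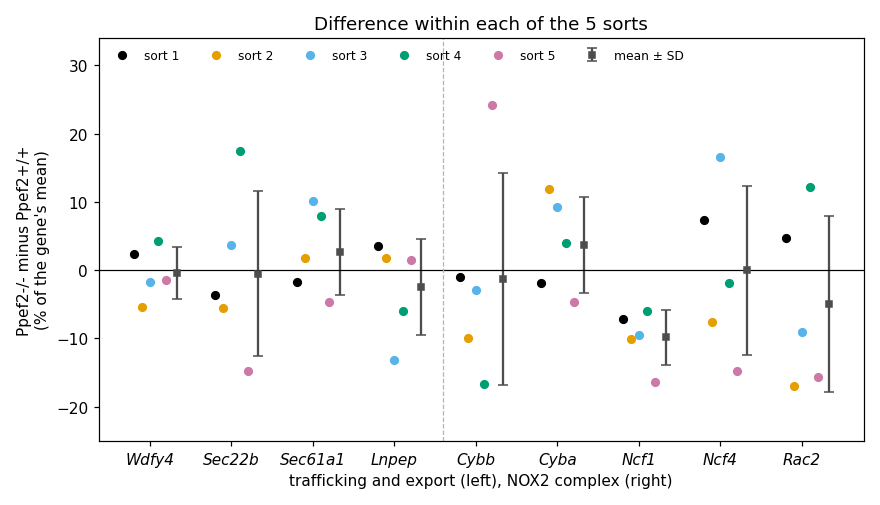
Difference between the Ppef2-/- and the Ppef2+/+ library within each sort, in percent of the mean of the gene (y axis), for the 4 trafficking and 5 NOX2 genes, with squares and bars for the mean ± SD over 5 sorts. Ncf1 lies below 0 in each sort, from -16.4 to -5.95%, while the points of the other 8 genes lie on both sides of 0.

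Counted over the 9 genes, the Ppef2-/- library was higher in 4, 3, 4, 5 and 2 of them in sorts 1 to 5. Of all genes, 49.6, 49.0, 50.2, 52.3 and 50.2% were higher in the Ppef2-/- library of these sorts. The median log2 fold change of the 9 genes was -0.01 and that of all genes was 0.00. Of the 9 genes, 1 was called without the block and 0 with it, compared to 0.957% and 0.00929% of all genes. An unadjusted p under 0.05 was found for 1 of them in either fit, compared to 17.5% of all genes without and 4.29% with the block.

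For the 4 genes with all values under 1000 (Sec22b, Lnpep, Cybb and Ncf4), the reads of each library were calculated back. One read was worth between 0.464 and 1.503 normalized read counts, depending on the library. From sort 1 to sort 5, Cybb had 424, 526, 489, 875 and 586 reads for Ppef2+/+ and 1236, 1099, 763, 658 and 546 reads for Ppef2-/- cells. Ncf4 had 413 to 765 reads in Ppef2+/+ and 484 to 1453 in Ppef2-/- libraries, Lnpep 505 to 881 and 528 to 1546, and Sec22b 141 to 228 and 142 to 540. Read numbers follow the depth of a library, which differed by a factor of 2.92 between the libraries of sort 1.

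With the mean of each sort put back, the values of Cybb were 580.4, 717, 735, 809 and 584 in Ppef2+/+ and 574, 649, 715, 695 and 748 in Ppef2-/- libraries of sorts 1 to 5. The low values of sort 1 in both genotypes are absent from the deposited table. The SD of Cybb was then 100.1 in Ppef2+/+ and 67.3 in Ppef2-/- libraries, against 52.7 in each genotype as deposited. The ratio of Ppef2-/- to Ppef2+/+ within a sort ranged from 0.860 to 1.28 for Cybb, 0.870 to 1.18 for Ncf4, 0.872 to 1.039 for Lnpep and 0.856 to 1.21 for Sec22b. In exact two-sided permutation tests of the genotype means (n = 5 each), p was 0.873 for Cybb, 0.984 for Ncf4, 0.556 for Lnpep and 0.929 for Sec22b. These tests ignored the pairing by sort, so the spread between sorts lowers their power. Exact sign-flip tests of the log ratios within the 5 sorts gave a p of at least 0.5625 for each of the 4 genes. Limma's voom on these reads with the sort as a block gave adjusted p values from 0.989 to 0.998 for these 4 genes.

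**Figure D4:**
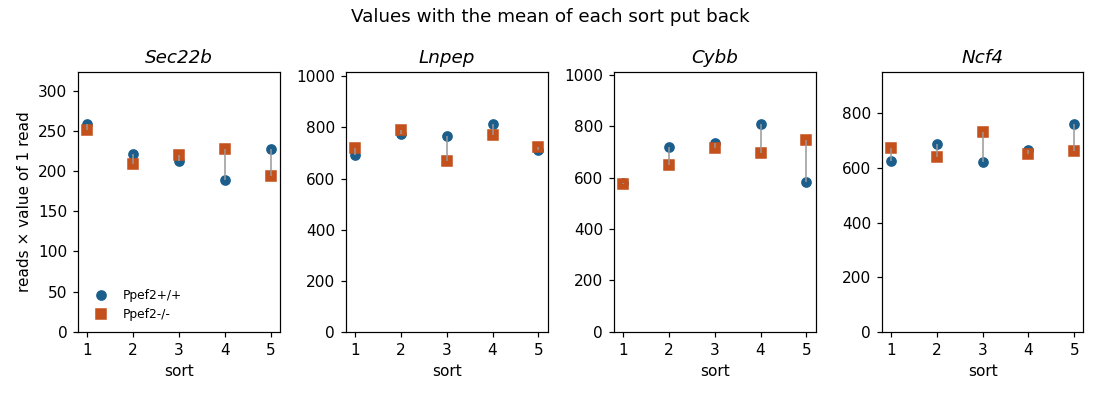
Reads times the value of 1 read (y axis, from 0) in each of the 5 sorts (x axis) for Sec22b, Lnpep, Cybb and Ncf4, with circles for Ppef2+/+ and squares for Ppef2-/- libraries. In Cybb both libraries of sort 1 are low (580.4 and 574), a level shared by the genotypes that the deposited values do not show.

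Of 77 related genes on 7 lists, 1 was called higher (Stx3) and 0 were called lower in limma without the block, and 0 were called with it. Among all 10767 genes, limma without the block called 0.474% higher and 0.483% lower. Stx3, a syntaxin of the plasma membrane and of secretory vesicles, was listed with the SNARE partners of Sec22b. It had 145, 131, 138, 136 and 145 normalized read counts in Ppef2+/+ and 159, 172, 165, 167 and 159 in Ppef2-/- libraries, without overlap. Its log2 fold change was 0.24, with an adjusted p of 0.0448 without and 0.995 with the block. Of all genes, 351 (3.26%) were higher in Ppef2-/- cells in 5 of 5 sorts. Leaving out any 1 library raised the adjusted p of Stx3 to between 0.0709 and 0.109.

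All 13 SNARE partners and ERGIC genes were in the table, and 8 had a positive and 5 a negative log2 fold change (median 0.05). Stx4a, the plasma membrane syntaxin that pairs with Sec22b on phagosomes, was 446 ± 24.0 in Ppef2+/+ and 411 ± 24.0 in Ppef2-/- cells, with an adjusted p of 0.231 in limma without the block. Snap23, a SNARE of the same fusion step, was 512 ± 25.6 and 516 ± 25.6. The most abundant genes on this list were Gosr2, a Golgi SNARE (1097 ± 55.6 and 1053 ± 55.6), and Vamp3, a SNARE of recycling endosomes (635 ± 28.2 and 675 ± 28.2).

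Of the 14 genes of the translocon and of ER export, 0 were called in either fit, and 4 had a positive and 10 a negative log2 fold change (median -0.04). The small channel subunits Sec61b and Sec61g were 522 ± 30.5 and 443 ± 28.8 normalized read counts in Ppef2+/+, and 528 ± 30.5 and 435 ± 28.8 in Ppef2-/- libraries. Sec62 and Sec63, which assist the channel, were 399.7 ± 35.8 and 739 ± 38.6 in Ppef2+/+, and 383 ± 35.8 and 724 ± 38.6 in Ppef2-/- libraries. Vcp, the ATPase that pulls proteins out of the ER, was the most abundant (2477 ± 78.3 and 2395 ± 78.3).

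None of the 8 genes with Lnpep on the list of the IRAP endosome and related aminopeptidases was called, and their log2 fold changes ranged from -0.14 to 0.05. Erap1, which trims peptides in the ER, was 854 ± 18.5 in Ppef2+/+ and 867 ± 18.5 in Ppef2-/- libraries, and Anpep, a surface aminopeptidase, was 3358 ± 68.9 and 3320.3 ± 68.9. Of the BEACH family and partners of WDFY4, 8 of 9 genes were in the table, 0 were called, and the log2 fold changes ranged from -0.04 to 0.07. Its most abundant members were the chaperones Hsp90ab1 (13869 ± 845 in Ppef2+/+ and 13597 ± 845 in Ppef2-/-) and Hsp90b1 (5366 ± 548 and 5425 ± 548).

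The other subunits of NOX2 and the genes that assemble or prime it counted 17 in the table, of which 0 were called, with a median log2 fold change of -0.02. Rac1, the ubiquitous Rac, was 1614 ± 70.7 normalized read counts in Ppef2+/+ and 1569.7 ± 70.7 in Ppef2-/- libraries, and Rap1a, a small GTPase found with the membrane heterodimer, was 859.8 ± 48.9 and 864 ± 48.9. BC017643, the gene of the chaperone Eros that gp91phox and p22phox need, was 499 ± 26.2 and 475 ± 26.2, and Hvcn1, the proton channel that balances the charge of NOX2, was 73.5 ± 17.2 and 75.6 ± 17.2. The most abundant genes here were Arhgdia, which holds Rac in the cytosol (4980.1 ± 127 and 4767 ± 127, adjusted p = 0.244), and Dock2, an exchange factor of Rac (2746 ± 109 and 2692 ± 109).

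Of 7 genes for other NADPH oxidases and their subunits, Noxo1 was the only one in the table, at 15.4 ± 2.60 in Ppef2+/+ and 9.59 ± 2.60 in Ppef2-/- cells (adjusted p = 0.127 without and 0.995 with the block). The V-ATPase, which pumps protons into the phagosome and so works against the effect of NOX2 on pH, had 16 of 18 genes in the table and 0 called, with 11 positive and 5 negative log2 fold changes (median 0.05). Its most abundant genes were Atp6v0a2 (1706 ± 60.3 in Ppef2+/+ and 1653 ± 60.3 in Ppef2-/-) and Atp6v0e (835 ± 24.1 and 776 ± 24.1, adjusted p = 0.121 without the block).

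**Figure D5:**
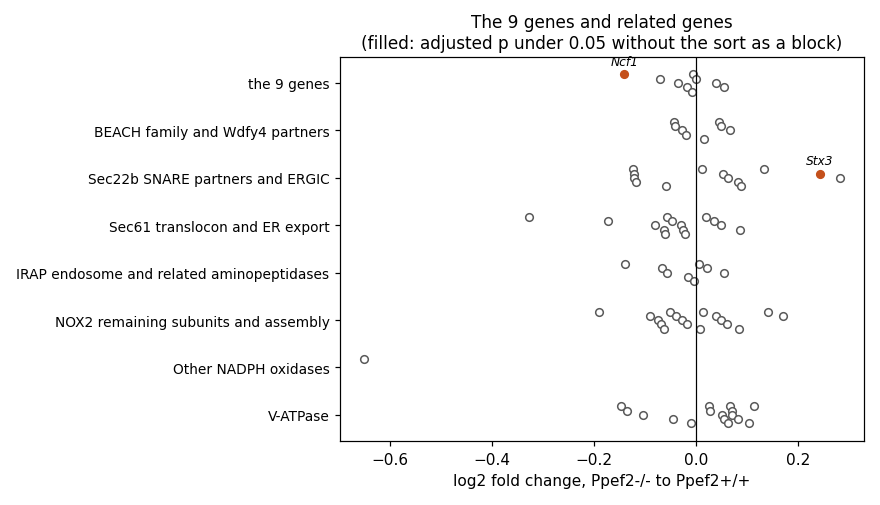
Log2 fold change of Ppef2-/- to Ppef2+/+ (x axis) for the 9 genes and 77 related genes on 7 lists (y axis), with filled points for an adjusted p under 0.05 in limma without the sort as a block. Ncf1 (-0.14) and Stx3 (0.24) are the filled points, and neither was called with the block.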

How the data were processed

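mRNA of sorted CD8+ cDC1 was sequenced as 50 bp single-end reads from unstranded poly-A libraries. According to the paper's methods, the authors used HISAT for alignment to mm10, Partek Genomics Suite for counts of RefSeq genes and DESeq2 for normalization, while the submitters' processing notes name TopHat2 2.0.3, Partek 6.6 and R 3.0.2. The authors deposited normalized read counts, a signal and not raw counts, floored at 1 and without genes whose genotype means were all under 10. All sample columns were used and 0 left out. The values sum to between 5295568 and 5482319 per library, which is no depth. The libraries had between 1391924 and 4405478 reads in the 9581 genes resolved to reads, and the mean of the rarest of the 9 genes, Sec22b, equals 147 to 475 reads per library, a counting error of at most 8.25%.

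Libraries with the same replicate number in both genotypes were taken as 1 sort. Over the 10721 genes that never reach the floor, the values of both libraries were taken as deviations from the genotype means. The r between both libraries of a sort was then -1.00 in every sort. Genotypes were compared by limma 3.58.1 in R 4.3.3 (lmFit, and eBayes with a trend) on log2(value + 1), with two-sided p values adjusted over 10767 genes after Benjamini-Hochberg, without the sort like the one-way model of the study. The fit with the sort as a block is given beside it. Intervals are 95% intervals of that blocked fit. Since 1 was added, fold changes of low genes are understated. Reads were calculated back for 9581 of 9627 genes with all values under 1000, from the value of 1 read per library, and the other 46 had no solution. The 4 genes of the 9 resolved were Sec22b, Lnpep, Cybb and Ncf4. Scripts were tested on simulated data. Exon lengths and positions are from GENCODE M21, and RefSeq windows were found for 6 of the 9 genes.

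The 9 genes and all lists were chosen with earlier results of these data known. Named are the 9 genes, Ppef2, direct partners, and from each related list the genes called in either fit and the 2 with the highest mean. Gtf2ird2, Tcf4, Siglech, Ccr9 and Bst2 were named after their values were seen, and marker lists are given by counts and ranges. A few of the genes this rule names are not reported here. Alternatives were the block, other pseudocounts, a filter on the mean, eBayes without a trend, another scaling, each library or sort left out, sort means put back, and voom on reads. Those for Stx3 were chosen after seeing the data.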

Additional observations from a re-analysis of the deposited data

How the results depend on the processing

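The number of genes called among all genes (103) was 97 to 107 with a pseudocount of 0.1 or 10 or median-ratio scaling and 79 with a mean of at least 50, and 193 with eBayes without a trend. It was 1 with the sort as a replicate block, 1 with the sort means put back and 2 with voom on reads with the block. Leaving out 1 library gave 1 to 23, and leaving out 1 sort with the block 1 to 4. Of the 9 genes, 1 (Ncf1) was called under the pseudocounts, the filter, the scaling and eBayes without a trend (adjusted p from 0.0288 to 0.0496), 0 with the replicate block, and 0 with any 1 library or sort left out. The sort means could not be put back for Ncf1, whose values exceed 1000. Its log2 fold change stayed between -0.16 and -0.12 in every fit. The number of genes that moved the same way in all sorts was 1, and 1 to 2 with 1 sort left out, since Cybb was lower in the 4 sorts other than sort 5. Stx3 lost its call with the block (adjusted p = 0.995), with the sort means put back (1.00), with voom (0.973) and with any 1 library left out.

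Of the genes that were not called, the log2 fold change turned positive with 1 library or sort left out in Wdfy4 (from -0.022 to 0.012 over these fits), Sec22b (-0.073 to 0.043), Lnpep (-0.058 to 0.0028), Cybb (-0.110 to 0.037) and Ncf4 (-0.061 to 0.052), and for Ncf4 also with the sort means put back (0.0017). Sec61a1, Cyba and Rac2 kept their direction in the fits run. The counting error of 1 library at the mean of the gene was at most 8.25% (Sec22b) and 0.726% (Wdfy4). A within-sort difference carries the counting error of both its libraries. The SDs of these differences were 3.78% (Wdfy4) to 15.5% (Cybb), with 12.05% for Sec22b. The part of counting error in these SDs was not tested.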
